A study of Homo sapiens with 4 samples.

Results

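The genes described here are markers and regulators of the epithelial-mesenchymal transition (EMT): CDH1, ESRP1, CDH2, VIM, FN1, SNAI1, SNAI2, ZEB1, ZEB2 and TWIST1. They were chosen by name and make up 10 of the 60880 genes in the count tables. RNA-Seq libraries of LNCaP95 and LN95(KO) were compared, with 2 libraries in each group. LNCaP95 is an androgen-independent subline of LNCaP, a human prostate cancer line of luminal epithelial character, and its genotype is labelled WT. LN95(KO) carries a CRISPR knockout of UGT2B17, which encodes an enzyme that couples glucuronic acid to androgens. Both groups were grown in RPMI1640 with charcoal-stripped serum and were untreated. How many clones LN95(KO) stems from is not stated in the sources used here. All 4 libraries are labelled LN95, whereas the series description names LNCaP for the knockout line. The labels do not say whether libraries of a group came from separate cultures, so the p-values measure only the spread between these libraries, which may be technical.

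In EMT, epithelial cells loosen their junctions and apical-basal polarity and take up a motile, spindle-shaped form. The transcription factors of the SNAI, ZEB and TWIST families drive the process, in part by binding E-box sequences near epithelial genes such as CDH1 and lowering their transcription. The splicing factor ESRP1 maintains epithelial isoforms, while vimentin and fibronectin mark the mesenchymal state, and in carcinoma many cells hold markers of both states at once.

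Depth was 17330338 to 18813193 gene reads per library, and 23775 to 24173 genes had a read. Levels are CPM (reads scaled for library size and composition), and fold changes are LN95(KO) over LNCaP95. Calls required both an adjusted p under 0.05 and a change over 2-fold. UGT2B17 had 2788 and 2748 reads in LNCaP95 against 21 and 20 for LN95(KO) (log2 fold change -7.04, SE 0.10, adjusted p = 1.18e-18). KRT8, a keratin of luminal epithelium, was at 604 ± 4.32 CPM in LNCaP95 and at 790 ± 14.5 CPM in LN95(KO) (SD, n = 2). Unaligned reads made up 3.85% and 3.96% of the LNCaP95 libraries and 8.05% and 7.71% of the LN95(KO) libraries, and the part of this difference in the results was not tested.

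Of the 10 genes, 7 had enough reads to be tested. SNAI2 and VIM were called higher in LN95(KO), and none was called lower. FN1 was higher, and CDH1 and ESRP1 were lower, each at an adjusted p under 0.05 but by less than 2-fold. SNAI1 and ZEB1 did not pass the test, and CDH2, ZEB2 and TWIST1 had at most 2 reads in any library. The 2 calls among 7 tested genes (28.6%) stand beside 18.0% of all 15626 genes tested, with 8.86% called higher and 9.13% called lower. SNAI2 had enough reads to be tested only in LN95(KO), where it was high, so these shares are a description and no test. Without the fold criterion, 5 of the 7 passed, beside 59.8% of all genes. The CPM of the groups did not overlap for 5 of the 7 tested genes, beside 79.8% of all genes. The median log2 fold change was 0.17 over the 7 tested genes and -0.01 over all genes. The former is the value of ZEB1 (95% interval -0.68 to 1.01). As the 7 mix epithelial and mesenchymal genes, their median does not measure a shift. In these bulk libraries, fewer cells that express a gene and less of its RNA per cell cannot be told apart.

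**Figure D1:**
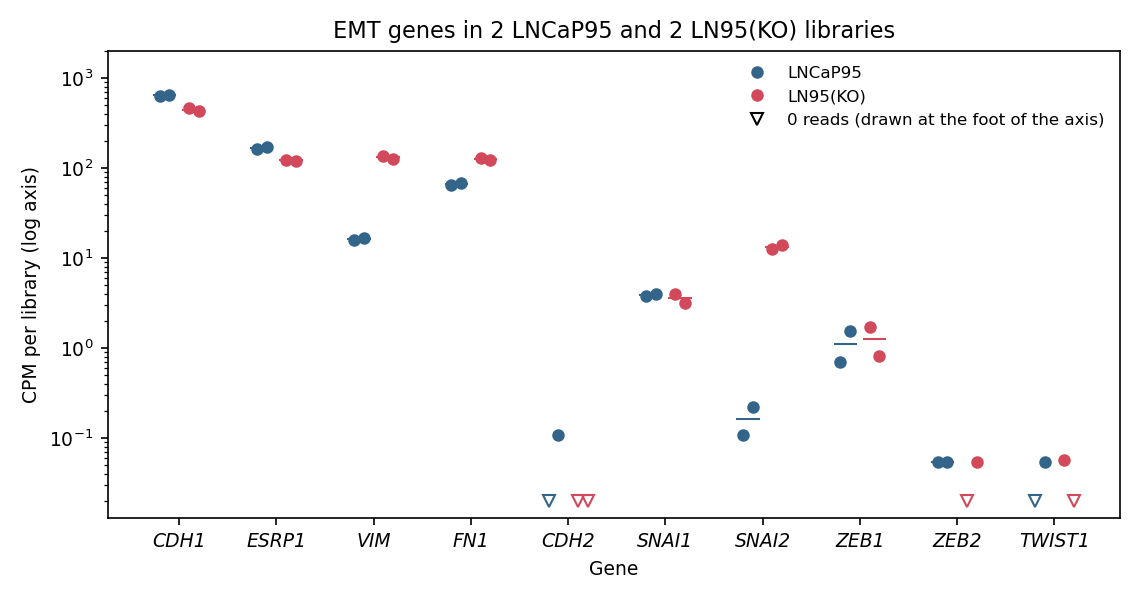
CPM of each EMT gene on a log scale in the 4 libraries, with LNCaP95 and LN95(KO) as separate groups of points, 1 point per library and a bar at each group mean. SNAI2 and VIM lie well above their LNCaP95 levels in both LN95(KO) libraries, FN1 lies higher, CDH1 and ESRP1 lie lower, and CDH2, ZEB2 and TWIST1 have 0 to 2 reads per library.

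The epithelial genes are described first. CDH1 (ENSG00000039068.18_5, chr16:68771195-68869440 of GRCh37, plus strand) encodes E-cadherin, the adhesion molecule of epithelial adherens junctions. It had 11514 and 11910 reads in LNCaP95 against 8114 and 7850 for LN95(KO). Both LN95(KO) libraries lay below both LNCaP95 libraries. The level was 637 ± 18.7 CPM in LNCaP95 and 444 ± 20.0 CPM in LN95(KO) (SD, n = 2), so that LN95(KO) held 69.7% of the LNCaP95 level. The log2 fold change was -0.52 (SE 0.05, 95% interval -0.62 to -0.42, adjusted p = 6.75e-08). CDH1 remained abundant in the knockout line. An opposite-strand gene shares 5.71% of its exon bases, and that gene had 0 reads in all libraries.

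CDH2 (N-cadherin), whose gain at the expense of E-cadherin is a classical mark of EMT, had 0 and 2 reads in LNCaP95 against 0 and 0 for LN95(KO). A count of 0 allows up to 3 reads, which is 0.163 to 0.169 CPM in these libraries. Of the reads on both cadherins, CDH1 made up 99.98% in LNCaP95 replicate 2 (95% Wilson interval 99.94% to 99.995%) and 100% in the other libraries, with lower bounds of 99.97% in LNCaP95 replicate 1 and 99.95% in both LN95(KO) libraries. These intervals cover counting error only. No CDH2 expression was detectable in LN95(KO) at this depth.

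ESRP1 (ENSG00000104413.16_4, chr8:95653302-95719694, plus strand) encodes an RNA-binding protein that directs epithelial splicing of CD44, FGFR2 and other transcripts. It had 3024 and 3094 reads in LNCaP95 against 2176 and 2196 for LN95(KO), with no overlap between the groups. The mean fell from 166 ± 3.60 to 122 ± 1.84 CPM (log2 fold change -0.45, SE 0.05, 95% interval -0.56 to -0.35, adjusted p = 5.93e-07). LN95(KO) held 73.1% of the LNCaP95 level. Its paralog ESRP2, which acts on many of the same exons, moved the other way: it was called higher, from 31.9 ± 1.10 to 65.5 ± 0.0785 CPM (log2 fold change 1.04, SE 0.07, adjusted p = 4.05e-10).

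Among the mesenchymal structural genes, VIM (ENSG00000026025.15_5, chr10:17270240-17279592, plus strand) encodes vimentin, the intermediate filament protein of mesenchymal cells. It had 292 and 303 reads in LNCaP95 against 2393 and 2319 for LN95(KO). The groups were far apart, with replicates close together in each. VIM rose from 16.2 ± 0.511 to 131 ± 5.75 CPM, an 8.10-fold difference (log2 fold change 3.02, SE 0.07, 95% interval 2.87 to 3.16, adjusted p = 3.75e-16). Of the genes tested, 265 (1.70%) had a larger positive log2 fold change. Genes on the opposite strand share 24.6% of the VIM exon bases. One of them, VIM-AS1, had 15 and 22 reads in LNCaP95 against 186 and 192 for LN95(KO) (log2 fold change 3.38, SE 0.20, adjusted p = 1.65e-10). Counting did not use strand and dropped reads on several genes, so reads where the exons of VIM and VIM-AS1 meet are in neither count.

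FN1 (ENSG00000115414.18_4, chr2:216225163-216300796, minus strand) encodes fibronectin, an extracellular matrix glycoprotein. It had 1206 and 1248 reads in LNCaP95 against 2257 and 2244 for LN95(KO). It was clearly expressed in both lines and higher in both LN95(KO) libraries. The mean was 66.7 ± 1.98 CPM in LNCaP95 and 125 ± 3.22 CPM in LN95(KO), a 1.88-fold difference. The log2 fold change of 0.91 (SE 0.06, adjusted p = 2.22e-10) had a 95% interval of 0.79 to 1.02, which reaches past the 2-fold line. No other gene shares FN1 exon bases.

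RefSeq promoter windows (GRCh38.p14) were used for 5 of the 10 genes: VIM and FN1, the mesenchymal genes that were higher, and CDH2, ZEB1 and ZEB2. The promoter reference held no window for CDH1, ESRP1, SNAI1, SNAI2 and TWIST1, so these promoters were not searched. The 250 bases upstream of the VIM start (chr10:17227991-17228240, plus strand) and of the FN1 start (chr2:215436069-215436318, minus strand) are shown 5′ to 3′, each ending at the base before the start, because the windows of these genes differ in base composition and motif content. Capitals mark the GC box GGGCGG, the cyclic AMP response element (CRE) TGACGTCA and the CCAAT box.
VIM: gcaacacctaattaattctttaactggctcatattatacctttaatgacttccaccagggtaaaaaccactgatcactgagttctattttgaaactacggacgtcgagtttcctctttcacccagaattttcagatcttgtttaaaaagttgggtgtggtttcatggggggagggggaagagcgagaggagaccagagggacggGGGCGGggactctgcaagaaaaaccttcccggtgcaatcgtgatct
FN1: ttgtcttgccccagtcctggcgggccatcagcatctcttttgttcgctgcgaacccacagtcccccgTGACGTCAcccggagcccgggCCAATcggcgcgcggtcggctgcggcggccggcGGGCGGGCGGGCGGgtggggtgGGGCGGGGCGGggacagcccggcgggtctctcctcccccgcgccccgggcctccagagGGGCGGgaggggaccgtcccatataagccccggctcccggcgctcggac
Each motif was searched on both strands. The VIM window was 46% G or C and held 1 GC box, 46 bases before the start. The FN1 window was 76.4% G or C and held 6 GC boxes, some overlapping each other, with 1 CRE and 1 CCAAT box further upstream. Over all 35116 windows of this length, 42.6% held a GC box, 1.65% a CRE and 32% a CCAAT box. The E-box CAGGTG, which SNAI and ZEB proteins bind, was in neither window and in 17.5% of all windows. Of the 12 windows of these 5 genes, 2 held the E-box, and both belong to ZEB1, which has 7 of the windows. The TATA box TATAAA (10.7% of all windows) and the AP-1 site TGAGTCA (4.2%) were in neither the VIM nor the FN1 window. These matches are letters in a window and not measured binding sites.

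The transcription factors differed in level and in change. SNAI2 (ENSG00000019549.11_4, chr8:49830157-49834299, minus strand) encodes SLUG, a zinc finger repressor of epithelial genes. It had 2 and 4 reads in LNCaP95 against 222 and 252 for LN95(KO). SNAI2 was thus near the limit of detection in LNCaP95 and plainly expressed in both LN95(KO) libraries. The mean rose from 0.163 ± 0.0778 to 13.2 ± 0.895 CPM (log2 fold change 6.28, SE 0.27, 95% interval 5.70 to 6.85, adjusted p = 2.25e-12). Pooled over libraries, 474 reads against 6 give a ratio of 80.8 (95% interval 36.9 to 221 from counting error). The interval of the fit was narrower than this, so it may understate the error for genes with few reads. Of all genes tested, 50 (0.320%) had a larger positive log2 fold change. An opposite-strand gene shares 3.69% of its exon bases.

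SNAI1 (ENSG00000124216.3_2, chr20:48599517-48605423, plus strand), the founding family member that encodes SNAIL, had 70 and 73 reads in LNCaP95 against 71 and 58 for LN95(KO). The groups overlapped. The level was 3.89 ± 0.137 CPM in LNCaP95 and 3.59 ± 0.589 CPM in LN95(KO) (log2 fold change -0.11, 95% interval -0.52 to 0.29, adjusted p = 0.627). The fold change was 0.049 on the log2 scale without LN95(KO) replicate 4. The paralogs SNAI1 and SNAI2 had log2 intervals that did not overlap.

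ZEB1 (ENSG00000148516.21_3, chr10:31607424-31818742, plus strand), a zinc finger and homeodomain repressor of CDH1, had 13 and 28 reads in LNCaP95 against 30 and 15 for LN95(KO). Both groups held a low and a high library. The log2 fold change was 0.17 (SE 0.40, 95% interval -0.68 to 1.01, adjusted p = 0.738), and it was -0.28 without LNCaP95 replicate 1 and -0.43 without LN95(KO) replicate 3. The interval runs from below 0 to just past the 2-fold line. ZEB1-AS1, a gene on the opposite strand that shares 4.58% of the ZEB1 exon bases, was expressed as well, with reads of 445 and 438 in LNCaP95 against 304 and 374 for LN95(KO) (log2 fold change -0.35, SE 0.10, adjusted p = 0.00485, 0.000506 to 0.0681 over the alternatives).

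ZEB2 (chr2:145121931-145278624, minus strand), the partner of ZEB1 in the family, had 1 and 1 reads in LNCaP95 against 0 and 1 for LN95(KO). TWIST1 (chr7:19060614-19157259, minus strand), a basic helix-loop-helix factor of mesoderm, had 0 and 1 reads in LNCaP95 against 1 and 0 for LN95(KO). Neither was detectable above the limit that a count of 0 allows. Among the 5 transcription factors, SNAI2 was thus the only gene called.

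**Figure D2:**
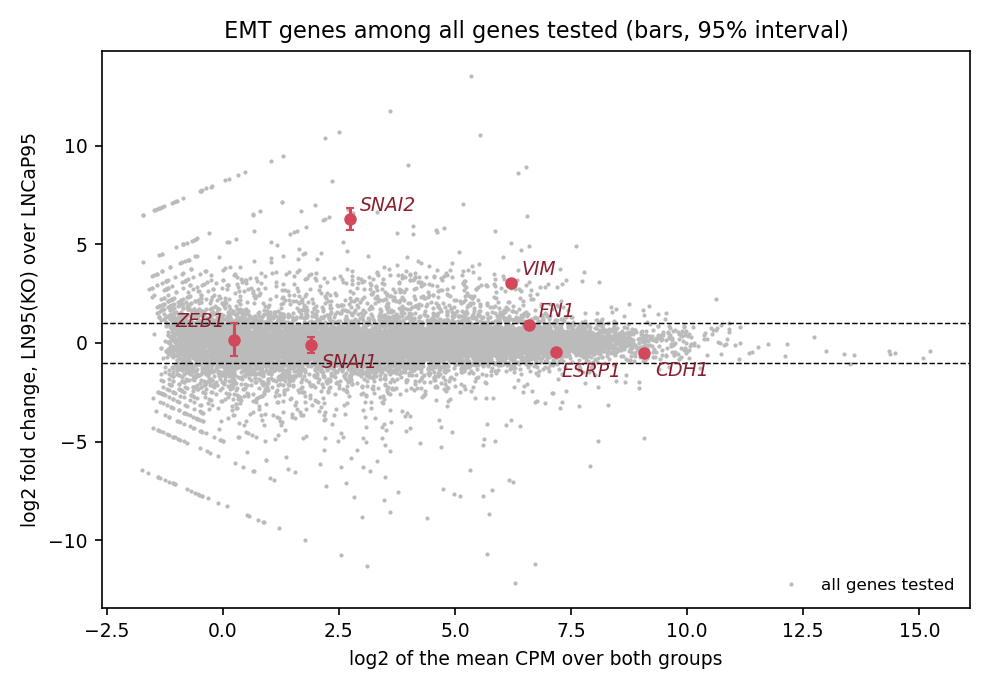
Log2 fold change, LN95(KO) over LNCaP95, against the log2 of mean CPM, with grey points for all genes tested, coloured points for the 7 tested EMT genes, bars for their 95% intervals and dashed lines at 2-fold. SNAI2 (6.28) and VIM (3.02) lie beyond the upper line, FN1 (0.91) lies at it, CDH1 (-0.52) and ESRP1 (-0.45) lie below 0, and the intervals of SNAI1 and ZEB1 include 0.

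Levels were set beside each other per kilobase of exon (CPM per kb). In LNCaP95 the order was CDH1 (105 ± 3.08), ESRP1 (34.1 ± 0.738), FN1 (3.88 ± 0.115), VIM (3.13 ± 0.0987), SNAI1 (2.28 ± 0.0801), ZEB1 (0.129 ± 0.0674) and SNAI2 (0.0498 ± 0.0237). ZEB1 and SNAI2 did not differ beyond their spread, while the neighbours above them lay further apart than theirs. In LN95(KO) the order was CDH1 (73.1 ± 3.29), VIM (25.3 ± 1.11), ESRP1 (25.0 ± 0.378), FN1 (7.27 ± 0.187), SNAI2 (4.02 ± 0.273), SNAI1 (2.11 ± 0.346) and ZEB1 (0.145 ± 0.0714). VIM and ESRP1 did not differ beyond their spread there. This place of VIM depends on the length used, since reads that fall on several genes were dropped and 24.6% of VIM exon bases are shared. Over unshared exon bases, a length chosen after the data were seen, VIM was at 4.15 ± 0.131 CPM per kb in LNCaP95, above FN1, and at 33.6 ± 1.47 CPM per kb in LN95(KO), above ESRP1. CDH1 ranked highest in both lines. Over all exon bases, VIM moved from rank 4 to rank 2, and SNAI2 from rank 7 to rank 5, above SNAI1. TWIST1, CDH2 and ZEB2 held the 3 lowest levels in both lines.

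**Figure D3:**
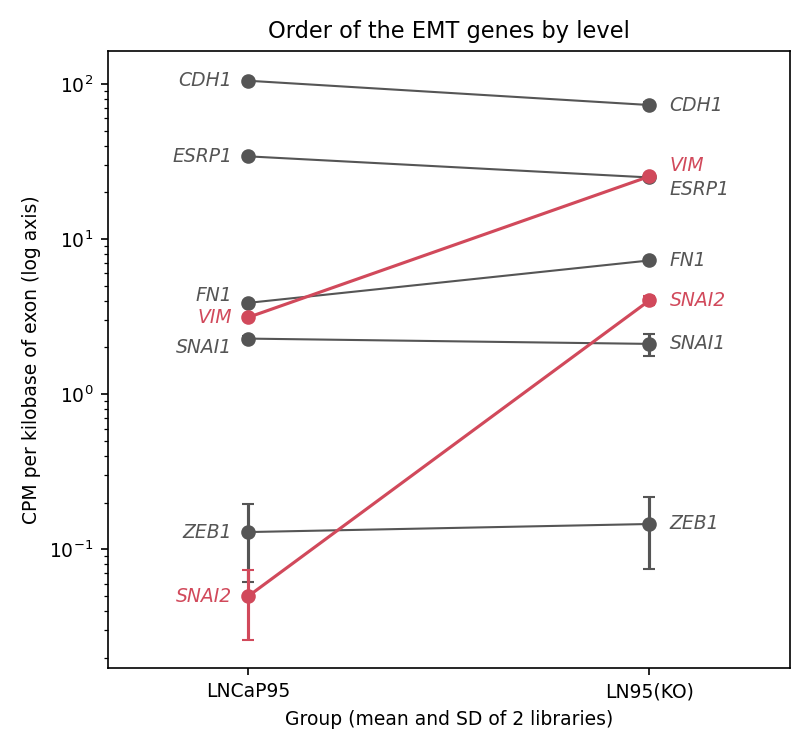
CPM per kilobase of exon of the 7 tested EMT genes on a log scale in LNCaP95 and LN95(KO), with each line joining the group means of 1 gene and bars for the SD of 2 libraries. Over all exon bases VIM reaches the level of ESRP1 (25.3 and 25.0, or 33.6 for VIM over unshared bases), SNAI2 passes SNAI1 (4.02 and 2.11), and CDH1 is highest in both groups.

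Other genes of the epithelial and mesenchymal programs were taken from 11 hand-written lists with 152 symbols, of which 151 matched a gene and 122 were tested. Of these, 12 were called higher and 9 lower, 17.2% beside 18.0% of all genes, and the median log2 fold change was 0.01. Without the fold criterion 93 of the 122 passed, beside 59.8% of all genes. Some genes are named below although the rule for names did not choose them, after their values were seen: CTNNB1, JUP, CLDN8, DSP, DSG2, EPCAM, MAL2, MYO5B, GRHL2, TRPS1, KLF4, PRRX1, TBXT, FBN1, LOXL2, MSN, CALD1, TGFB1, TGFB3, BMPR1B, INHBA, SMAD4, ACVR1B, MBNL1, MIR200CHG, LUM, PDGFRB, KRT5 and TP63, and KRT8 above.

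In the adherens junction list, where CDH1 acts with catenins and nectins, 11 of 12 genes were tested, with 0 called higher and 1 lower (median 0.14). This was 9.09% of the tested genes, beside 18.0% of all genes. The called gene was NECTIN3, a nectin adhesion molecule, at 53.5 ± 0.175 CPM in LNCaP95 and 23.7 ± 0.707 CPM in LN95(KO) (log2 fold change -1.17, adjusted p = 2.17e-10). The catenins that bind the E-cadherin tail were not called. For CTNNB1 (beta-catenin) the log2 fold change was 0.04 (adjusted p = 0.451), and for JUP (plakoglobin) it was 0.19 (adjusted p = 0.00186).

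The tight junction list had 14 tested genes with 1 called higher and 0 lower (7.14% called, beside 18.0% of all genes, median 0.07). The call was CLDN8, a claudin, with 9 and 16 reads in LNCaP95 against 33 and 38 for LN95(KO) (log2 fold change 1.53, adjusted p = 0.000738). TJP1, which encodes the scaffold ZO-1, was lower without being called (log2 fold change -0.41, adjusted p = 8.06e-07).

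Desmosome genes, which tie keratin filaments to the membrane, had 6 tested members with 1 called higher, 1 lower and a median of 0.56. The calls were 33.3% of the tested genes, beside 18.0% of all genes. Without the fold criterion 5 of the 6 were higher, beside 29.8% of all genes. The desmosomal cadherin DSC2 rose from 39.6 ± 0.292 to 104 ± 2.25 CPM (log2 fold change 1.39, adjusted p = 2.02e-12). DSP (desmoplakin) and DSG2 were higher by less than 2-fold, with log2 fold changes of 0.86 and 0.62. PKP2, a plakophilin, was called lower at -1.01, and was -0.95 with library totals as scaling, -0.92 without LNCaP95 replicate 2 and -0.81 without LN95(KO) replicate 4, none past 2-fold.

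In the polarity list none of 12 tested genes was called, beside 18.0% of all genes (median -0.17). Without the fold criterion 8 of the 12 passed, beside 59.8% of all genes. DLG1, with the highest mean count of the list, had a log2 fold change of -0.25. In the list of epithelial surface and trafficking genes none of 9 was called, beside 18.0% of all genes (median -0.36). Without the fold criterion 6 were lower and 1 higher, beside 30.1% and 29.8% of all genes. EPCAM, an epithelial adhesion protein, went from 269 ± 11.7 to 205 ± 1.83 CPM (log2 fold change -0.39, adjusted p = 2.65e-06). MAL2, a transcytosis protein, had a log2 fold change of -0.43 and MYO5B, a recycling motor, of -0.97. MYO5B was past 2-fold without LNCaP95 replicate 1 (-1.004) or LN95(KO) replicate 3 (-1.09), and weakened to as little as -0.85 with another library left out. ST14, the membrane protease matriptase, was the gene that was higher, at 0.75.

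Among 11 tested epithelial transcription and splicing factors, 2 were called higher and 0 lower (18.2% called, beside 18.0% of all genes, median -0.16). Besides ESRP2 this was GRHL1, a grainyhead factor, which rose from 7.37 ± 0.232 to 15.7 ± 0.142 CPM (log2 fold change 1.09, adjusted p = 3.31e-07). Its relative GRHL2, an activator of CDH1 transcription, was higher by less than 2-fold (0.78, adjusted p = 9.73e-10). Others were lower by less than 2-fold, among them TRPS1 (-0.99, adjusted p = 8.87e-08) and KLF4 (-0.82, adjusted p = 1.53e-05). Of the 11 tested genes, 5 had a log2 fold change above 0.

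The list of other EMT transcription factors had 12 of 18 genes tested, with 1 called higher and 1 lower (median 0.00). The calls were 16.7% of the tested genes, beside 18.0% of all genes. The called genes, PRRX1 and TBXT, each had enough reads to be tested only in the group where they were high. The other 6 genes had at most 6 reads in a library. PRRX1, a homeobox factor of mesenchyme, had 31 and 36 reads in LNCaP95 against 2 and 1 for LN95(KO), a ratio of 21.8 (95% interval 7.16 to 109 from counting error) in favour of LNCaP95. TBXT (brachyury) was called higher at 1.06 (adjusted p = 0.0333), with 8 and 9 against 15 and 20 reads, but its adjusted p was between 0.0257 and 0.335 in the alternatives, and the call was lost when any of the 4 libraries was left out. YAP1, a Hippo pathway coactivator, had the highest mean count of the list and a log2 fold change of 0.52.

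The mesenchymal structure and motility list had 11 of 25 genes tested, with 3 called higher and 1 lower (median 0.63). These calls were 36.4% of the tested genes, beside 18.0% of all genes. SPARC and FBN1 had enough reads to be tested only in LN95(KO), where they were high. The share is thus a description and not a result about the list. The 14 untested genes had at most 10 reads in a library. SPARC, a matricellular glycoprotein, had 5 and 3 reads in LNCaP95 against 97 and 121 for LN95(KO) (log2 fold change 4.76, SE 0.32, adjusted p = 8.20e-10). LOX, a collagen crosslinking oxidase, had 35 and 23 against 134 and 147 reads (2.30, adjusted p = 2.87e-08). FBN1 (fibrillin) was higher at 2.04 with 9 and 5 against 28 and 29 reads. LOXL2, a relative of LOX, was lower at -1.18 with 32 and 31 against 14 and 13 reads, and DESeq2 gave it an adjusted p of 0.127. Of the abundant cytoskeletal genes, MSN (moesin) was higher at 0.63 and CALD1 (caldesmon) lower at -0.28, neither of them called. Per kilobase of exon, SPARC, LOX and FBN1 reached 1.31 ± 0.175, 1.40 ± 0.0612 and 0.0856 ± 0.000273 CPM in LN95(KO), far below the 25.3 ± 1.11 of VIM.

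**Figure D4:**
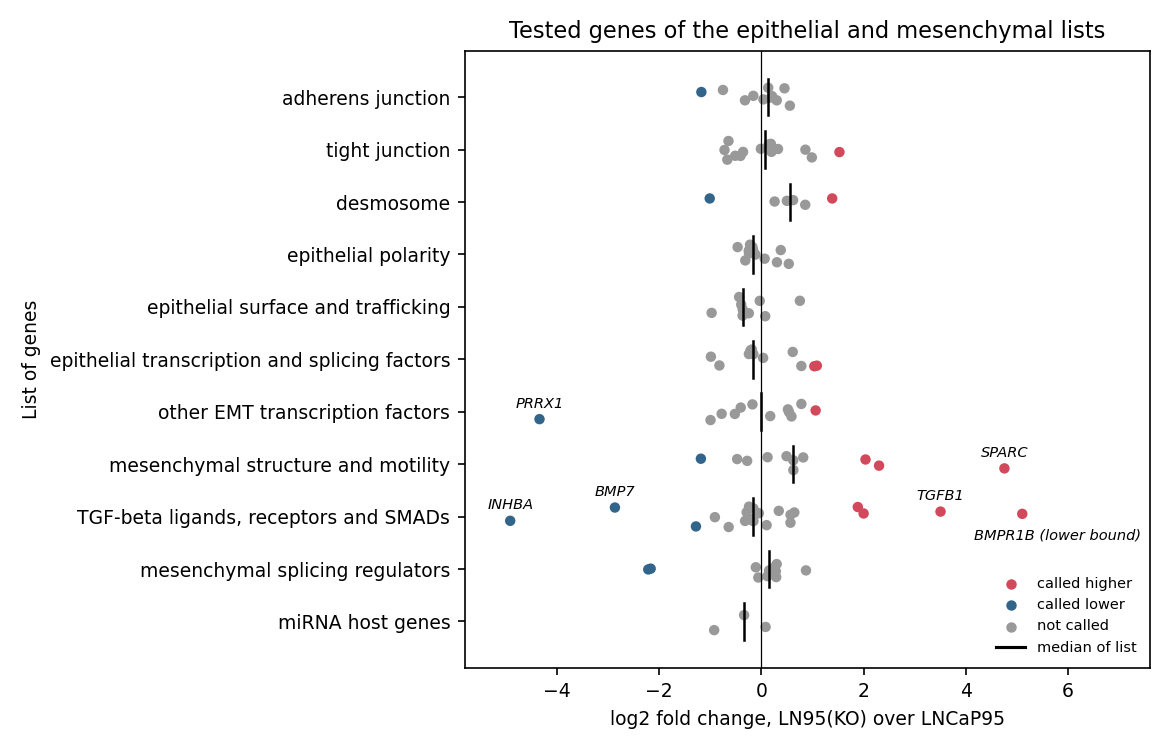
Log2 fold change, LN95(KO) over LNCaP95, of each tested gene in the 11 lists, with 1 point per gene, calls in colour and a bar at the median of each list. Calls lie on both sides of 0 in the TGF-beta list (4 higher, 3 lower), and the mesenchymal structure list has 3 higher and 1 lower. Over all genes tested, 8.86% were called higher and 9.13% lower. BMPR1B is drawn at its lower bound.

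Transforming growth factor beta (TGF-beta) signals through type I and type II receptors and SMAD proteins and is a classical inducer of SNAI and ZEB genes. Of 25 listed genes 22 were tested, with 4 called higher and 3 lower (31.8% called, beside 18.0% of all genes, median -0.15). TGFB1, TGFB3 and BMPR1B had enough reads to be tested only in LN95(KO), and INHBA only in LNCaP95. The share called is thus a description and not a result about the list. Of the ligands, TGFB1 had 3 and 1 reads in LNCaP95 against 24 and 23 for LN95(KO), a ratio of 12.0 (95% interval 4.39 to 45.9 from counting error). TGFB3 had 3 and 4 against 13 and 13 reads (log2 fold change 1.89, adjusted p = 0.00573, 0.00464 to 0.152 over the alternatives), and it lost its call with DESeq2 and without LNCaP95 replicate 1, LN95(KO) replicate 3 or LN95(KO) replicate 4. Both ligands remained scarce in the knockout line.

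Other ligands were lower. BMP7, a bone morphogenetic protein that opposes TGF-beta in epithelia, had 997 and 918 reads in LNCaP95 against 117 and 140 for LN95(KO), and fell from 52.1 ± 2.76 to 7.14 ± 0.750 CPM (log2 fold change -2.86, SE 0.10, adjusted p = 7.64e-14). INHBA, the subunit of activin A, had 40 and 29 reads in LNCaP95 against 1 and 1 for LN95(KO), a ratio of 33.7 (95% interval 8.99 to 284 from counting error) in favour of LNCaP95.

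Of the receptors, TGFBR2, the type II receptor, had 39 and 29 reads in LNCaP95 against 127 and 140 for LN95(KO) (log2 fold change 2.00, SE 0.19, adjusted p = 8.69e-08). BMPR1B, a bone morphogenetic protein receptor, had 0 and 0 reads in LNCaP95 against 46 and 55 for LN95(KO), at least 34.4-fold higher when 3 reads are allowed over the LNCaP95 group. ACVR1B, an activin receptor, had a log2 fold change of -0.64 and was not called. Of the intracellular components, the inhibitory SMAD7, itself a target of the pathway, fell from 8.51 ± 0.531 to 3.50 ± 0.318 CPM (log2 fold change -1.28, adjusted p = 2.33e-06), and the shared SMAD4 was lower by less than 2-fold (-0.91, adjusted p = 8.18e-09).

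**Figure D5:**
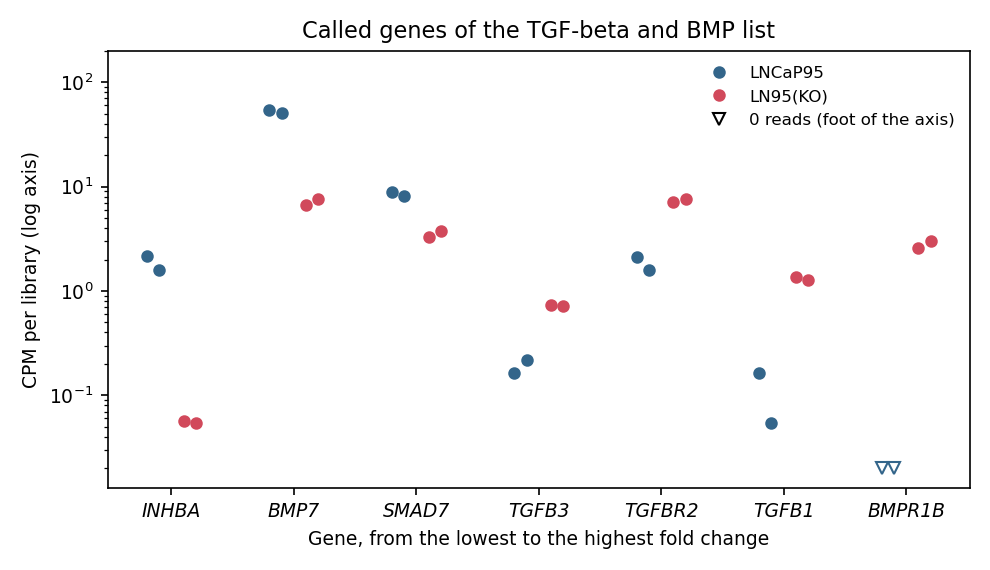
CPM of the 7 called TGF-beta pathway genes in each of the 4 libraries, on a log axis with 1 point per library and triangles for 0 reads. TGFB1, TGFB3, TGFBR2 and BMPR1B are higher in both LN95(KO) libraries, and BMP7, INHBA and SMAD7 are lower in both.

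Splicing regulators that act with or against ESRP1 on mesenchymal exons were examined next. All 11 were tested, with 0 called higher and 2 lower (18.2% called, beside 18.0% of all genes, median 0.15). MBNL2, a muscleblind protein, fell from 127 ± 0.808 to 27.5 ± 1.07 CPM (log2 fold change -2.21, adjusted p = 5.94e-15), and CELF2 fell from 39.4 ± 1.86 to 8.78 ± 0.676 CPM (-2.16, adjusted p = 2.94e-12). The paralog MBNL1 was higher by less than 2-fold, at 0.87. Among the host genes of microRNAs that act on ZEB and SNAI transcripts, 3 of 4 were tested and none was called, beside 18.0% of all genes. MIR200CHG, the host of miR-200c and miR-141, which target ZEB1 and ZEB2, had 30 and 40 reads in LNCaP95 against 19 and 17 for LN95(KO) (log2 fold change -0.92, adjusted p = 0.0137). It was past 2-fold without LNCaP95 replicate 1 (-1.12) or LN95(KO) replicate 3 (-1.02), and weakened to as little as -0.70 with another library left out. MIRLET7BHG was not called (log2 fold change 0.08, adjusted p = 0.435).

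Markers of other cell types were read beside VIM, FN1 and SPARC, which stromal cells also express. The fibroblast markers DCN and PDGFRA had 0 reads in all 4 libraries, COL1A1 was at 28.4 ± 0.0379 CPM in LNCaP95 and 33.0 ± 1.74 CPM in LN95(KO), and LUM had 24 and 19 reads in LNCaP95 against 0 and 0 for LN95(KO), at least 14.0-fold lower over the group. PDGFRB was called higher at 1.17, with an adjusted p of 0.0650 by DESeq2. The summed level of the 6 fibroblast markers was 30.5 to 31.2 CPM in LNCaP95 and 34.5 to 37.0 CPM in LN95(KO). The 3 matched endothelial markers summed to 0.433 and 0.491 CPM against 2.77 and 3.18 CPM, nearly all of it VWF (log2 fold change 2.75), with CDH5 at 0 in all libraries. The 4 leukocyte markers had at most 1 read in a library. The basal prostate markers summed to 0.163 and 0.164 CPM against 1.02 and 1.26 CPM, nearly all of the LN95(KO) sum being KRT14. KRT14 had 1 and 2 against 17 and 20 reads. KRT5 had 0 and 1 against 1 and 3 reads and TP63 had 2 and 0 against 0 and 0, too few to be tested. The neuroendocrine markers summed to 6.50 and 6.93 CPM against 2.49 and 2.30 CPM, with SYP at 2.42 ± 0.0253 and 2.34 ± 0.0505 CPM. Of the luminal secretory genes, KLK2 and KLK3 were called higher, with log2 fold changes of 4.91 and 3.62. The part of the basal and endothelial markers in the change of VIM and SNAI2 was not tested.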

How the data were processed

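Poly(A) RNA of 2 LNCaP95 and 2 LN95(KO) libraries was sequenced on the DNBseq platform, and groups came from the labels. The authors deposited unnormalized counts per gene. Per the submitters' processing notes, alignment to hg19 used HISAT2 (version 2.1.0) and counting used HTSeq on a GENCODE annotation, without strand, so that reads on several genes were dropped. Summary lines (reads not aligned, ambiguous at 9.82% to 10.4%, or on no feature at 3.81% to 4.06%) were left out. A second, combined table had identical counts. Identifiers matched a symbol for 59899 of 60880 genes. Coordinates and exon lengths were those of a later GENCODE release on GRCh37.

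Counts were tested with the edgeR quasi-likelihood test (version 4.0.16, R 4.3.3) with TMM factors, filterByExpr (minimum count 10, minimum total 15) and Benjamini-Hochberg adjustment over 15626 genes. Calls needed an adjusted p under 0.05 and a fold change over 2, the thresholds of the study. The test was checked on simulated data with the same spread for all genes and changes put only into well-expressed genes. That check does not cover calls on genes with few reads. The SE and 95% interval of each log2 fold change were derived from the test statistic and are symmetric. For genes with few reads they may be too narrow. Depth was 17330338 to 18813193 gene reads, and intervals on counts and shares (95%) cover counting error only, since no molecular identifiers were used. Replicates differed by more than sampling noise (chi-square per degree of freedom 2.31 and 3.31), and the biological coefficient of variation was 4.27%. No permutation test was used, since 2 against 2 libraries allow no two-sided p below 0.333.

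The alternatives were RLE factors, library totals, no filter, DESeq2 (version 1.42.0), no fold criterion, and leaving out each library. Named genes were UGT2B17, the 10 EMT genes, their antisense genes and, in each list, up to 3 called genes with the largest change at a mean normalized count of at least 50, or else the gene with the highest count. The EMT genes and the lists were chosen with earlier results of these data known. Some luminal markers are not reported here.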

Additional observations from a re-analysis of the deposited data

Results flagged for a closer look

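Unaligned reads lie outside the gene counts, and their share was higher in both LN95(KO) libraries (8.05% and 7.71%, the lower being 7.707%) than in LNCaP95 (3.85% and 3.96%). What these reads hold was not tested.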

How the results depend on the processing

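SNAI2 and VIM were the EMT genes called, 2 in number, under RLE factors, library totals, no filter and DESeq2 and without each library in turn. Without the fold criterion 5 EMT genes passed (3 higher, 2 lower). So did 9349 of all 15626 genes tested (59.8%) in place of 2811 (18.0%). Of the 122 tested genes of the 11 lists, 93 passed in place of 21 (17.2%). Leaving out 1 library gave 2539 to 2777 called genes, and DESeq2 gave 2310. The fold change of ZEB1 turned to -0.28 without LNCaP95 replicate 1 and -0.43 without LN95(KO) replicate 3 (range -0.43 to 0.82), and that of SNAI1 to 0.049 without LN95(KO) replicate 4 (range -0.29 to 0.049). Of 55 other genes refitted one by one, 46 kept their call and direction in every alternative. MIRLET7BHG turned to -0.034 without LNCaP95 replicate 1 (range -0.034 to 0.21) and SYP to 0.0049 with library totals, and PKP2, TBXT, LOXL2, TGFB3, MYO5B, MIR200CHG and PDGFRB gained or lost a call. The cause was not tested. With a library left out, the lone sample of its group is assumed to vary like the other group. The length without shared exon bases, chosen after seeing the data, moved VIM from 3.13 to 4.15 CPM per kb in LNCaP95 and from 25.3 to 33.6 in LN95(KO). Library totals moved the median of all genes to 0.05. CDH2, ZEB2 and TWIST1 had too few reads to be tested at this depth. No paired analysis was possible because LNCaP95 carries the numbers 1 and 2 in the labels and LN95(KO) 3 and 4.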

Other observations

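The genes tested within 1 Mb of each EMT gene, start to start, were read as a description chosen after the values were known. Over all genes tested, 8.86% were called higher and 9.13% lower. Around VIM, 10 neighbours were tested, with 2 called higher (CUBN and VIM-AS1), 1 lower (HACD1) and a median log2 fold change of -0.13. Around FN1, 9 were tested, with 0 called higher and 3 lower (BARD1, SNHG31 and ABCA12), a median of -0.21 and a highest value of 0.18. Around SNAI2 only 2 were tested, MCM4, a subunit of the replicative helicase, called higher at 2.05, and UBE2V2, not called, at -0.05. Around CDH1, 36 were tested, with 4 called higher, ESRP2 among them, and 0 lower (median 0.03). Around ZEB1, none of 7 was called.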
